A study of Zea mays with 12 samples.

Results

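The measurement described here is the difference in how maize seeds of the *ereb92* mutant and of its wild type KN5585 changed their transcripts over the first 6 h of imbibition, the uptake of water that starts germination. For each gene, the change from 0 to 6 h in KN5585 was subtracted from the same change in *ereb92* on the log2 scale. This value is called the interaction, so that a positive interaction means a larger increase (or a smaller decrease) in *ereb92*. All 12 libraries of the study and all genes of its count table were used, and 25567 of 55529 genes had enough counts to be tested. *ereb92* is *ereb92-6*, a line in which *ZmEREB92*, a gene of the AP2/ERF transcription factor family, was knocked out with CRISPR/Cas9 in the KN5585 inbred background, and it was the only mutant line sequenced. The 4 groups were *ereb92*_6h, *ereb92*_0h, KN5585_6h and KN5585_0h, with 3 biological replicates each, and the labels of both times give wet filter paper and dark at 28 °C, with the 0 h seeds taken at no time of imbibition. RNA came from whole seeds, which hold embryo, endosperm and aleurone, and poly(A) RNA was sequenced. In such bulk samples, fewer cells of a type and less RNA per cell cannot be told apart.

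A dry seed holds stored mRNA, ribosomes, proteasomes and mitochondria, and these let it restart respiration and protein synthesis within hours of wetting. Gibberellins promote germination, and the GID1 receptors carry the signal, while abscisic acid holds germination back. The GRAS family includes the DELLA repressors of gibberellin signaling. Growth of the embryo then needs cell walls that loosen and extend, the work of expansins, xyloglucan-modifying enzymes and cellulose synthases. AP2/ERF factors such as *ZmEREB92* bind DNA and regulate hormone and stress genes.

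Each library held between 12771663 and 15383586 counts assigned to genes. In 11 libraries between 27689 and 32080 genes had a count, and KN5585_6h replicate 1 stood apart with 23104. Because this library is 1 of the 3 that set the KN5585 change, the medians of the main lists are also given without it. *ZmEREB92* (Zm00001d000339, B73 RefGen_v4 contig B73V4_ctg23, 49432 to 50133, plus strand) had 289, 195 and 62.4 CPM (counts scaled to a library size of 1000000) in the libraries labelled *ereb92*_6h, 7.66, 1.3 and 5.32 CPM in those labelled *ereb92*_0h, 13.3, 4.59 and 33 CPM in KN5585_6h, and 9.12, 1.65 and 2.12 CPM in KN5585_0h. The 3 *ereb92*_6h libraries were above all others, and the interaction of 3.25 (SE 1.2) did not pass the adjusted threshold (adjusted p = 0.491). A gene-level count shows neither the edit nor the protein, so these values do not check the genotype labels. The study's reference gene *ZmEF1a* (Zm00001d009870), which encodes a translation elongation factor, ranged from 256 to 362 CPM over the 12 libraries, with an interaction of -0.33 (SE 0.262, adjusted p = 0.875). Seed markers were present in every library, with globulin and vicilin genes summing to between 13000 and 75500 CPM and oil-body oleosin genes to between 12400 and 60700 CPM.

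Few single genes passed, and all of them in the same direction. In edgeR's quasi-likelihood test over the 12 libraries, 8 genes had a larger increase in *ereb92* (0.0313% of the genes tested) and 0 a smaller one (0.0%), where a call needed a log2 interaction of at least 1 in size and a p under 0.05 after Benjamini-Hochberg adjustment. With the size limit kept but no adjustment (p under 0.05), 1497 genes (5.86%) had a larger and 220 (0.86%) a smaller increase in *ereb92*. DESeq2 called 353 (1.38%) and 13 (0.0508%), and limma-voom with sample weights 477 and 36. The median interaction of all genes was 0.08, with quartiles at -0.36 and 0.80, and 54.4% of genes were positive. The count of 8 rested on particular libraries: it was 281 without KN5585_6h replicate 3, 42 without *ereb92*_6h replicate 3 and 13 without KN5585_0h replicate 1, and 0 without any 1 of the other 9 libraries, KN5585_6h replicate 1 among them. Without KN5585_6h replicate 3 the unadjusted counts were 2667 larger and 459 smaller, and without KN5585_0h replicate 1 the smaller ones were 452. With the replicate number as a block, over all groups or within each genotype, it was 0, and within genotypes the adjusted p of the 8 was 0.0699 to 0.159. The 8 genes are therefore given as the ones with the clearest difference, and the gene lists below as counts and medians.

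For the genes with a larger increase in *ereb92*, the difference lay mostly at 6 h. Over the 1497 genes with a larger increase in *ereb92* at the unadjusted p, the median log2 difference of *ereb92* over KN5585 was 2.16 at 6 h and -0.26 at 0 h. Their median change over 6 h was 2.18 in *ereb92* and -0.26 in KN5585. When a fitted change of at least 1 in size is called up or down, 792 of them (52.9%) were up in *ereb92* and within that limit in KN5585, 274 (18.3%) were up in *ereb92* and down in KN5585, and 161 (10.8%) were up in both. Since the interaction chose these genes, this is a description and no test. The 220 genes in the other direction were more mixed: 76 (34.5%) stayed within the limit in both genotypes, 52 (23.6%) were up in KN5585 alone, and 38 (17.3%) were down in *ereb92* and up in KN5585. Their median log2 difference of *ereb92* over KN5585 was -1.03 at 6 h and 0.47 at 0 h, so part of it lay in the dry seeds.

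The gene with the lowest p encodes an AP2/ERF protein itself. *RAV1* (Zm00001d043782, chromosome 3, 210069089 to 210070258, plus strand), of a plant family that joins an AP2 to a B3 DNA-binding domain, had 614, 424 and 204 CPM in *ereb92*_6h, 10, 7.87 and 9.01 CPM in *ereb92*_0h, 5.13, 9.88 and 15.7 CPM in KN5585_6h, and 6.75, 12.2 and 11.7 CPM in KN5585_0h. Only the *ereb92*_6h libraries were high, and none of them overlapped another group. The interaction was 5.53 (SE 0.644, adjusted p = 0.0333), and the adjusted p was 0.00487 to 0.145 as single libraries were left out. Hexokinase 7 (Zm00001d037689, chromosome 6, 134063370 to 134066401, plus strand), of the enzymes that phosphorylate glucose for glycolysis, had 169, 96.2 and 63.8 CPM in *ereb92*_6h against 9.18, 4.96 and 9.6 CPM in *ereb92*_0h, and 14.4, 13.1 and 23.7 CPM in KN5585_6h against 19.3, 16.9 and 15.2 CPM in KN5585_0h. It increased more in *ereb92* by 3.80 (SE 0.537, adjusted p = 0.0458), and its 3 *ereb92*_0h libraries were the lowest of all.

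The Actin-7 gene (Zm00001d032480, chromosome 1, 228063148 to 228066312, minus strand), a cytoskeleton filament protein, was near the floor everywhere except in imbibed *ereb92*. It had 54, 49 and 14.7 CPM in *ereb92*_6h, 0.608, 0.687 and 0.648 CPM in *ereb92*_0h, 0, 0.129 and 0 CPM in KN5585_6h, and 0.19, 1.51 and 0.707 CPM in KN5585_0h. Its fitted interaction of 9.82 (SE 1.21, adjusted p = 0.0333) rests on 2 counts in KN5585_6h against 34 in KN5585_0h, a ratio of 0.0536 with an exact 95% counting interval of 0.00623 to 0.209. This interval is for summed counts and leaves out the spread between libraries. Zm00001d028838 (chromosome 1, 48287887 to 48288669, plus strand), annotated as a long cell-linked locus protein, had 281, 416 and 154 CPM in *ereb92*_6h and at most 3.26 CPM in each of the other 9 libraries. Its interaction was 6.94 (SE 1.01, adjusted p = 0.0485).

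The other 4 called genes rose in the same manner, with 3 *ereb92*_6h libraries above the other 9. Zm00001d032810 (chromosome 1, 238936428 to 238940007, plus strand), annotated with CHY, CTCHY and RING zinc fingers, had 395, 405 and 185 CPM in *ereb92*_6h, 17.8, 15.1 and 13.4 CPM in *ereb92*_0h, 11.8, 11.9 and 26.6 CPM in KN5585_6h, and 8.84, 20 and 12.7 CPM in KN5585_0h (interaction 4.14, SE 0.584, adjusted p = 0.0458). Zm00001d021221 (chromosome 7, 146489261 to 146494703, minus strand), annotated only as a protein binding protein, had 134, 69.7 and 66.7 CPM in *ereb92*_6h and between 5 and 11.2 CPM elsewhere (3.07, SE 0.425, adjusted p = 0.0458). Zm00001d029667 (chromosome 1, 81894379 to 81896612, plus strand), a predicted membrane protein, had 49.4, 39.2 and 33.4 CPM in *ereb92*_6h, against 1.05 to 6.52 CPM in the other libraries (4.62, SE 0.654, adjusted p = 0.0458). Zm00001d033714 (chromosome 1, 271994541 to 271996227, plus strand) is annotated as a regulator of Vps4, an ATPase of membrane traffic, and had 23.9, 29.2 and 20.6 CPM in *ereb92*_6h and at most 2.08 CPM elsewhere (5.24, SE 0.768, adjusted p = 0.0485).

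**Figure D1:**
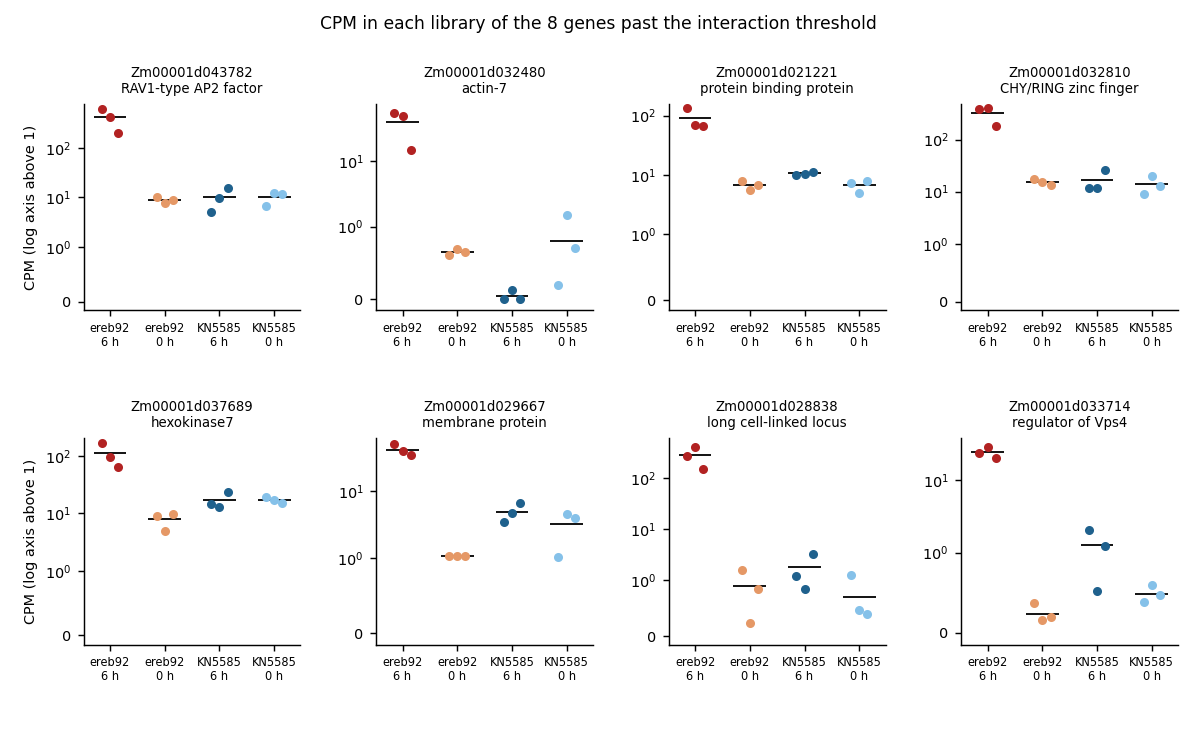
CPM (log axis above 1) of the 8 genes called for the interaction, with 1 point per library, 3 libraries per group and a line at the group mean. In each gene the 3 *ereb92*_6h libraries lie above all of the other 9, for example 614, 424 and 204 CPM for *RAV1* with no other library above 15.7 CPM.

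Some genes just outside the threshold had like values. Zm00001d009160, annotated as a DNA-binding transcription factor, had 512, 228 and 104 CPM in *ereb92*_6h, 3.65, 3.97 and 1.17 CPM in *ereb92*_0h, 5.52, 2.45 and 6.43 CPM in KN5585_6h, and 1.43, 4.74 and 4.63 CPM in KN5585_0h, with an interaction of 6.19 and an adjusted p of 0.0591. The *EXO70B2* gene (Zm00001d038447), whose product belongs to the exocyst that tethers secretory vesicles, had 113, 99.5 and 51.1 CPM in *ereb92*_6h and 7.13 to 12.1 CPM in the other libraries (2.68, adjusted p = 0.0598). A syringolide-induced protein gene (Zm00001d006256) and an amino acid transporter gene (Zm00001d046661) stood at 3.26 and 3.49, both with an adjusted p of 0.0598. These 4 genes did not pass.

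Functions were then ranked by the median interaction of gene lists, which were made by matching words in the gene annotation of the count table. Of 46 lists, 44 had at least 10 members tested. Their medians ran from 1.35 for expansins and xyloglucan-modifying enzymes to -1.61 for genes of the mitochondrial genome. The first of these, with both kinds of gene, is called the expansin list below. In it, 18 expansins had a median of 0.57, and 12 xyloglucan endotransglucosylases and hydrolases 2.1. Below the expansin list came AP2/ERF factors (1.05), gibberellin and GRAS genes (0.99), WRKY factors (0.98), NAC factors (0.86), receptor-like kinases (0.78), UDP-glycosyltransferases (0.65), storage proteins (0.61) and cellulose synthases with other wall synthesis genes (0.59). At the other end, above the mitochondrial genome, were the proteasome (-0.26), the nuclear respiratory chain (-0.25), cytosolic ribosomal proteins (-0.25), glycolysis (-0.21) and translation factors (-0.14). Without KN5585_6h replicate 1 the medians were 0.91 for the expansin list, 0.82 for AP2/ERF factors and 0.95 for gibberellin and GRAS genes. WRKY factors then had 0.82, NAC factors 0.91, receptor-like kinases 0.73, UDP-glycosyltransferases 0.44 and the mitochondrial genome -1.73. The ranks also moved with the filter on low counts. With at least 10 counts in every library, 17 genes of the expansin list were left with a median of 0.55. This was below gibberellin and GRAS genes at 0.94, AP2/ERF factors at 0.89 and NAC factors at 0.75. WRKY factors had 0.53 and wall synthesis genes 0.28. With limma-voom the expansin list had 0.82 and WRKY factors 0.99. The top of the ranking thus held several lists of regulators, receptors and wall genes, beside UDP-glycosyltransferases and storage proteins. The machinery of protein synthesis, protein breakdown, glycolysis and respiration was at the bottom. Other regulators and wall genes ranked lower: MYB, bZIP, and B3 and NF-Y factors had medians of 0.19, 0.17 and 0.14. Pectin-modifying enzymes and their inhibitors had 0.40 (0.18 to 0.73 with single libraries left out). Of these, 4 of 54 members (7.41%, against 5.86% of all genes) had a larger increase at the unadjusted p and 1 a smaller one.

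**Figure D2:**
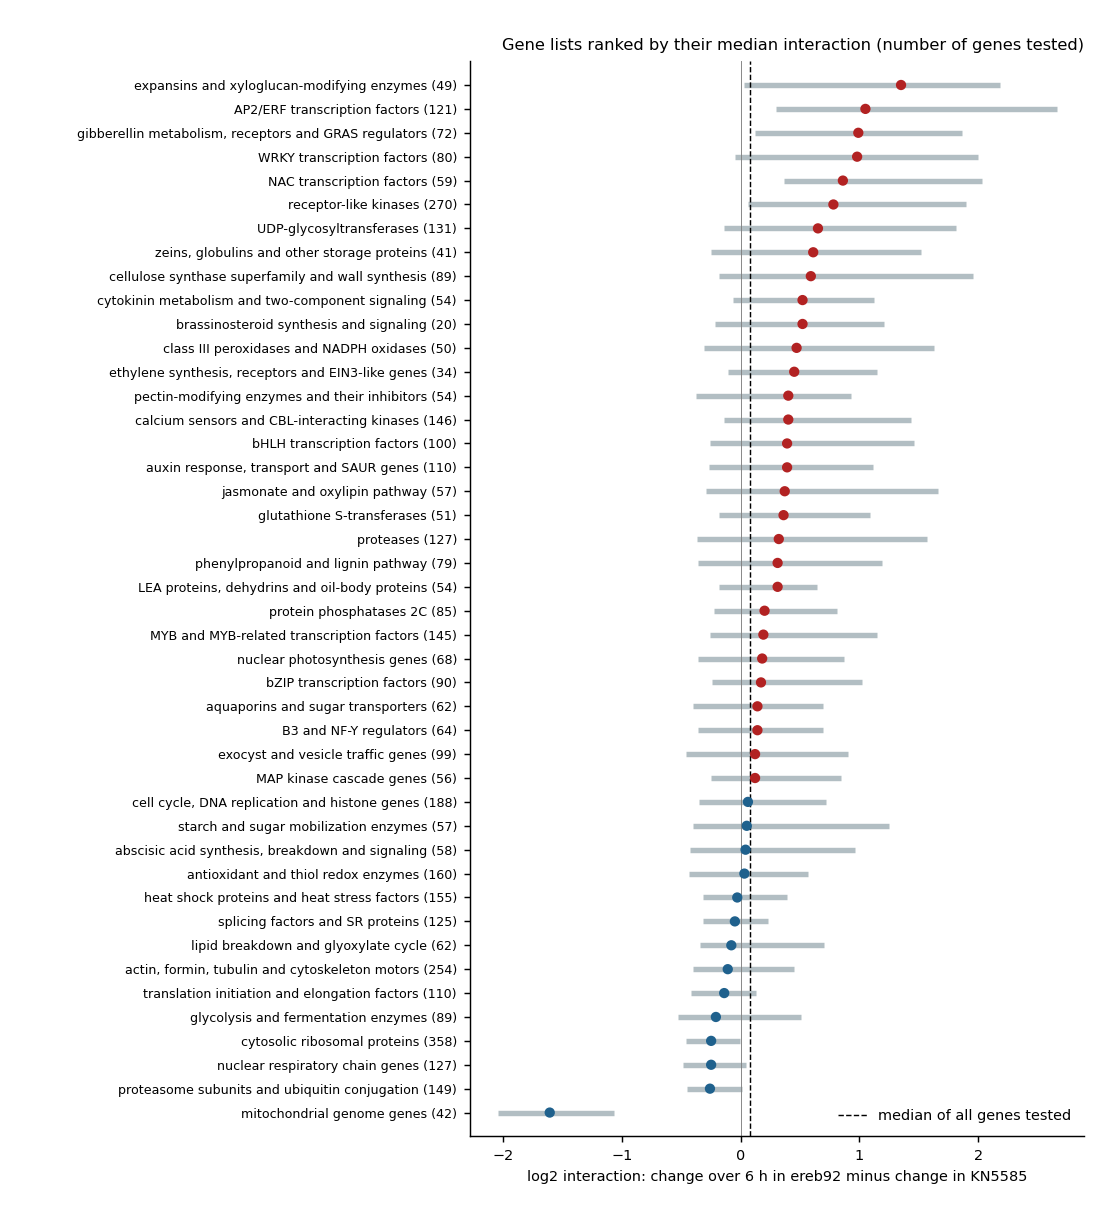
Median log2 interaction (dot) and quartiles (bar) of the 44 gene lists with at least 10 members tested, ranked by the median, with the median of all 25567 genes, 0.08, as the dashed line. Red lists lie above that median and blue ones below it, from 1.35 for expansins and xyloglucan-modifying enzymes to -1.61 for mitochondrial genome genes.

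The interaction also varied with how abundant a transcript was. When all genes tested were put in 10 equal bins of mean CPM, the median interaction was 0.96 in the lowest bin (median 0.473 CPM), 0.18 in the fifth (5.15 CPM) and -0.20 in the highest (108 CPM). The share of genes with a larger increase in *ereb92* at the unadjusted p was 9.03% in the lowest bin and 2.93% in the highest. The expansin list had a median abundance of 2.27 CPM and receptor-like kinases of 2.57 CPM, where the bins' medians lie near 0.32. AP2/ERF factors (10.4 CPM) and NAC factors (5.28 CPM) sat at abundances where the bins gave 0.07 and 0.18. Ribosomal proteins (56.6 CPM) and the proteasome (44.2 CPM) sat where the bin gave -0.11, and the nuclear respiratory chain (29.6 CPM) where it gave -0.04, all above their own medians of -0.25, -0.26 and -0.25. The mitochondrial genome genes (2.44 CPM) had a median of -1.61 where the bin gave 0.32. The part of abundance in the ranks of the lists was not tested further.

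**Figure D3:**
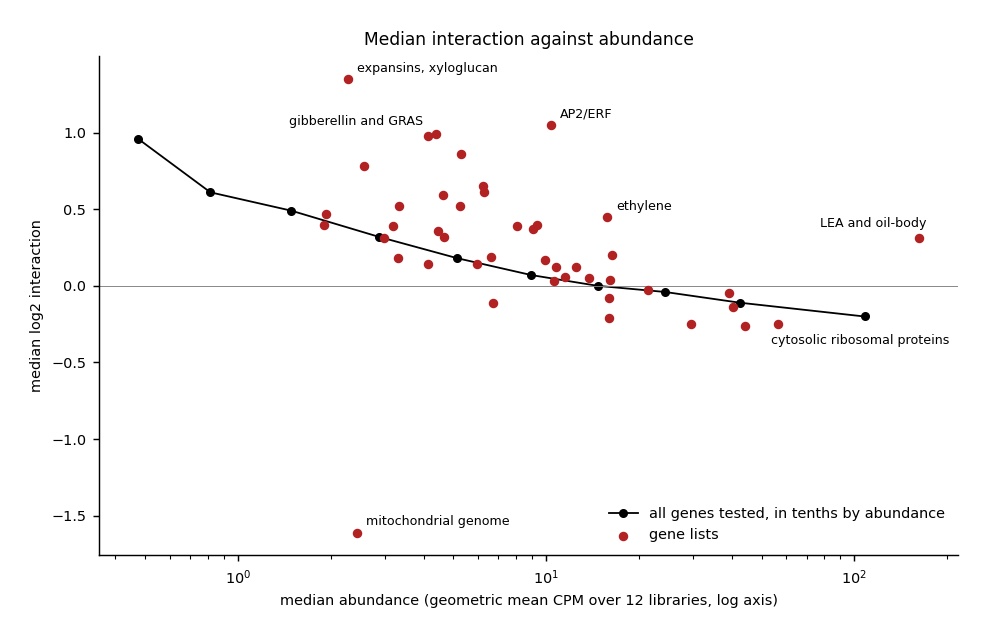
Median log2 interaction (y axis) against abundance in CPM (x axis, log scale) for the bins of all genes (line) and for the gene lists (points). The line falls to -0.20 at 108 CPM, against 0.96 at 0.473 CPM, with the AP2/ERF list at 1.05 and the mitochondrial genome list at -1.61 both far from it.

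Among the regulators, the AP2/ERF list, the family of *ZmEREB92*, had 29 of 121 tested members with a larger increase in *ereb92* at the unadjusted p (24.0%, against 5.86% of all genes) and 0 with a smaller one, and 1, *RAV1*, passed the adjusted threshold. Its median change over 6 h was 1.02 in *ereb92* and 0.12 in KN5585, and 82.6% of members had a positive interaction. The mean log2 CPM of the list, relative to each gene's mean over the libraries, was 1.5, 1.07 and 0.96 in *ereb92*_6h, -0.37, -0.28 and -0.51 in *ereb92*_0h, -1.59, -0.26 and 0.49 in KN5585_6h, and -0.21, -0.33 and -0.46 in KN5585_0h. The *ereb92*_6h libraries were the highest 3, and KN5585_6h was the most spread group. Both held over all genes tested too, at a smaller size. The mean level of all genes was 0.29, 0.19 and 0.15 in *ereb92*_6h, -0.44, -0.06 and -0.08 in KN5585_6h, and -0.11 to 0.07 elsewhere. Without KN5585_6h replicate 1 the median interaction of the AP2/ERF list was 0.82, with 27 of 130 members at the unadjusted p. Without KN5585_6h replicate 3 the count was 48.

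Examples from this family did not pass the adjusted threshold on their own. AP2-EREBP-transcription factor 7 (Zm00001d052167) had 131, 62.8 and 56.2 CPM in *ereb92*_6h, 4.56, 2.75 and 3.31 CPM in *ereb92*_0h, 4.94, 2.91 and 11.8 CPM in KN5585_6h, and 5.13, 4.35 and 3.61 CPM in KN5585_0h (interaction 3.97, adjusted p = 0.0694). AP2-EREBP-transcription factor 148 (Zm00001d009103) was the more abundant, with 1260, 835 and 392 CPM in *ereb92*_6h and 88.7 to 170 CPM in the other libraries (2.52, adjusted p = 0.122). For 41 of the 121 members (33.9%), the 3 *ereb92*_6h libraries lay above the other 9, against 7.42% of all genes. *ZmDREB1.1* (Zm00001d006169), of a subfamily known in *Arabidopsis* for cold responses, had 190, 775 and 616 counts in *ereb92*_6h, 5, 0 and 0 in *ereb92*_0h, and none in the 6 KN5585 libraries, and *ZmDREB1.10* (Zm00001d002618) had 22, 70 and 29 counts in *ereb92*_6h and 5 counts in all in the other 9 libraries. No fitted change is given for these, since a group is at 0.

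WRKY factors, which act mainly in defence and stress responses, had 13 of 80 members (16.2%) and NAC factors, a large plant family of developmental and stress regulators, 11 of 59 (18.6%) with a larger increase in *ereb92* at the unadjusted p, and 0 each in the other direction. Over all genes the shares were 5.86% and 0.86%. The WRKY and NAC values moved with single libraries. Without *ereb92*_6h replicate 1 the counts were 6 for WRKY and 7 for NAC, without KN5585_6h replicate 3 they were 24 and 22, and without KN5585_0h replicate 2 the NAC count was 7 and the WRKY median 0.59. WRKY-transcription factor 48 (Zm00001d015515), annotated as similar to WRKY40, had 638, 596 and 430 CPM in *ereb92*_6h, 33.3, 70.3 and 45.5 CPM in *ereb92*_0h, 25.8, 72.4 and 133 CPM in KN5585_6h, and 34.3, 46.6 and 29.7 CPM in KN5585_0h, an interaction of 2.42 (adjusted p = 0.275). NAC-transcription factor 66 (Zm00001d040318) had 43.5, 52.8 and 13.7 CPM in *ereb92*_6h and at most 4.46 CPM elsewhere (3.11, adjusted p = 0.201). The bHLH, MYB and bZIP families had medians of 0.39, 0.19 and 0.17, nearer to that of all genes. With single libraries left out, the bHLH median was 0.20 (*ereb92*_6h replicate 1) to 0.63 (KN5585_6h replicate 3), the MYB median 0.11 (*ereb92*_6h replicate 1) to 0.34 (KN5585_6h replicate 3) and the bZIP median 0.10 (KN5585_0h replicate 1) to 0.42 (KN5585_6h replicate 2).

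In the gibberellin and GRAS list, 18 of 72 members (25%) had a larger increase in *ereb92* at the unadjusted p and 0 a smaller one. Over all genes the shares were 5.86% and 0.86%. The list's mean level was 1.39, 0.88 and 0.59 in *ereb92*_6h, -0.34, -0.03 and -0.35 in *ereb92*_0h, -1.13, -0.42 and 0.16 in KN5585_6h, and -0.20, -0.12 and -0.44 in KN5585_0h, on the log2 scale relative to each gene's mean. The 3 *ereb92*_6h libraries were again the highest, as they were over all genes. Most of the count came from GRAS factors, a family that includes the DELLA repressors of gibberellin signaling but also unrelated regulators, with 14 of 46 members and a median of 1.1. GRAS-transcription factor 49 (Zm00001d006551), similar to a chitin-inducible gibberellin-responsive protein of rice, had 416, 335 and 273 CPM in *ereb92*_6h, 37, 55.8 and 34.7 CPM in *ereb92*_0h, 68.8, 38.7 and 120 CPM in KN5585_6h, and 50.3, 36.5 and 35.7 CPM in KN5585_0h (2.11, adjusted p = 0.201). These subgroups were formed after the values were seen.

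The genes annotated as making, inactivating or perceiving gibberellins differed among themselves. All 10 tested genes annotated as GID1-like receptors had a positive interaction, against 54.4% of all genes, with a median of 0.80. The annotation alone does not show that each of them perceives gibberellins. At the unadjusted p 1 of them had a larger increase, against 5.86% of all genes. This was *ZmGID1* (Zm00001d038165), with 135, 89.9 and 97.3 CPM in *ereb92*_6h, 42.1, 35.6 and 39.9 CPM in *ereb92*_0h, 21.8, 58.1 and 41.2 CPM in KN5585_6h, and 33.5, 36.9 and 30.6 CPM in KN5585_0h (1.19, adjusted p = 0.471). *ZmGA2ox6* (Zm00001d037724), of the enzymes that inactivate gibberellins, had 67.6, 29.6 and 20.6 CPM in *ereb92*_6h, 2.31, 2.06 and 4.54 CPM in *ereb92*_0h, 6.3, 4.97 and 5.9 CPM in KN5585_6h, and 13.6, 15.1 and 2.75 CPM in KN5585_0h (4.59, adjusted p = 0.087). The 6 GA20 oxidase genes, which make gibberellin precursors, had a median of -0.07. One of them, *ZmGA20ox8* (Zm00001d049926), was at 0 in all 3 KN5585_6h libraries and between 1.05 and 2.37 CPM in *ereb92*_6h.

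The other hormone lists lay lower. Against 5.86% of all genes with a larger increase at the unadjusted p, brassinosteroid genes had 4 of 20 members (20.0%) and a median of 0.52, cytokinin genes 3 of 54 (5.56%) and 0.52, ethylene genes 3 of 34 (8.82%) and 0.45, auxin genes 11 of 110 (10.0%) and 0.39, and jasmonate genes 5 of 57 (8.77%) and 0.37. The cytokinin share was thus below that of all genes, and the ethylene and jasmonate shares, of 3 and 5 genes, near it. Without KN5585_6h replicate 3 the counts were 7 for cytokinin, 20 for auxin and 16 for jasmonate, without KN5585_6h replicate 2 they were 5 for cytokinin and 19 for auxin, and without *ereb92*_6h replicate 1 they were 2 for brassinosteroid and 3 for jasmonate. The medians moved too: brassinosteroid to 0.29 without KN5585_6h replicate 1, cytokinin to 0.32 without *ereb92*_6h replicate 1, and jasmonate to 0.15 and 0.20 without KN5585_0h replicate 1 or 2 and 0.67 without KN5585_6h replicate 2 or 3. The abscisic acid list had 7 of 58 (12.1%) at the unadjusted p but a median of 0.04, below that of all genes, and the median was -0.17 without *ereb92*_6h replicate 3, -0.09 without KN5585_6h replicate 1 and 0.29 without *ereb92*_0h replicate 3. *ZmABH1* (Zm00001d017762), an abscisic acid hydroxylase that breaks the hormone down, had 89.8, 48.7 and 43.5 CPM in *ereb92*_6h, 1.03, 0.611 and 1.69 CPM in *ereb92*_0h, 3.83, 1.74 and 3 CPM in KN5585_6h, and 0.95, 0.527 and 0.471 CPM in KN5585_0h (3.60, adjusted p = 0.087). *ZmSnRK2.3* (Zm00001d029975), a kinase of abscisic acid signaling, ran the other way, with 11.4, 10.7 and 14.2 CPM in *ereb92*_6h, 21.1, 17.8 and 20.6 CPM in *ereb92*_0h, 29, 27.3 and 20.5 CPM in KN5585_6h, and 25.7, 26.1 and 19.7 CPM in KN5585_0h (-0.81, adjusted p = 0.56). Protein phosphatases 2C, some of which repress abscisic acid signaling, had 13 of 85 members (15.3%) at the unadjusted p and a median of 0.20. One of these, a phosphatase 2C 48 gene (Zm00001d034109), had 87.2, 82 and 57.5 CPM in *ereb92*_6h and 1.23 to 22.7 CPM elsewhere (3.71, adjusted p = 0.249).

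Examples of ethylene signaling genes are given, since AP2/ERF factors act downstream of this hormone. All of the examples had a positive interaction, as did 24 of the 34 members tested. The 3 *ereb92*_6h libraries lay above the other 9 for 26.5% of members and below them for 1 member, against 7.42% and 1.61% of all genes. No synthesis gene is printed, nor is *ZmEIN1*, which the study names as an exception among its up-regulated genes. The receptor gene *ZmETR2* (Zm00001d025050) had 281, 152 and 64.9 CPM in *ereb92*_6h, 19.1, 13 and 11.9 CPM in *ereb92*_0h, 24.6, 14.9 and 31.9 CPM in KN5585_6h, and 15.5, 17.6 and 16.6 CPM in KN5585_0h (2.98, adjusted p = 0.122). *ZmEIL4* (Zm00001d020939), an EIN3-like factor that carries the signal to genes, had 147, 72.2 and 57.6 CPM in *ereb92*_6h and 7.51 to 32.2 CPM elsewhere (2.16, adjusted p = 0.392). The groups of *ZmEIL7* (Zm00001d003451), another EIN3-like gene, were closer: 262, 253 and 235 CPM in *ereb92*_6h, 82.9, 232 and 134 CPM in *ereb92*_0h, 33.5, 92.8 and 134 CPM in KN5585_6h, and 37.8, 125 and 133 CPM in KN5585_0h (0.93, adjusted p = 0.877). *ZmEBF2* (Zm00001d015778), of the F-box proteins that remove EIN3-like factors, had 171, 105 and 92.3 CPM in *ereb92*_6h and 25 to 58.5 CPM elsewhere (1.12, adjusted p = 0.602). None of the 4 passed the adjusted threshold.

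Genes of the cell wall made up the highest list and the ninth, ranks that did not hold with the stricter filter on counts given above. Of 49 expansin and xyloglucan-modifying genes, 7 (14.3%, against 5.86% of all genes) had a larger increase in *ereb92* at the unadjusted p. A smaller one was found for 0, against 0.86% of all genes. The median changes of the list were 0.77 in *ereb92* and -0.03 in KN5585. The list's mean level was 1.32, 0.99 and 0.99 in *ereb92*_6h, -0.17, -0.25 and 0.07 in *ereb92*_0h, -1.76, 0.11 and -0.22 in KN5585_6h, and -0.65, -0.13 and -0.31 in KN5585_0h, so that the lowest library of all was KN5585_6h replicate 1. That library was also the lowest over all genes. Without it the median of the list was 0.91 in place of 1.35, and without KN5585_6h replicate 2 the count was 13 in place of 7. A xyloglucan endotransglucosylase gene (Zm00001d014613), of the enzymes that cut and rejoin wall xyloglucans, had 150, 136 and 175 CPM in *ereb92*_6h, 4.62, 4.51 and 2.01 CPM in *ereb92*_0h, 3.77, 8.4 and 33 CPM in KN5585_6h, and 2.38, 6.32 and 4.16 CPM in KN5585_0h (3.58, adjusted p = 0.218). Expansin-A6 (Zm00001d012957), which loosens walls, had 64.7, 52.6 and 45.4 CPM in *ereb92*_6h and 7.47 to 29.8 CPM elsewhere (1.94, adjusted p = 0.347). Of subgroups formed after the values were seen, 2 of 18 expansins had a larger increase at the unadjusted p, with a median of 0.57. Their summed CPM was 414 to 453 in *ereb92*_6h and 215 to 479 elsewhere. For xyloglucan endotransglucosylases and hydrolases it was 4 of 12 and 2.1, with 554 to 803 CPM in *ereb92*_6h and 16.1 to 103 CPM elsewhere.

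Of 89 wall synthesis genes, 19 (21.3%) had a larger and 1 a smaller increase in *ereb92* at the unadjusted p, against 5.86% and 0.86% of all genes. The count of larger ones in the list was 11 without KN5585_0h replicate 2. The median of 0.59 was 1.09 without *ereb92*_0h replicate 2, 1.07 without KN5585_6h replicate 3, 1.02 without KN5585_6h replicate 2 and 0.97 without *ereb92*_0h replicate 3. The cellulose synthases among them had 7 larger and 1 smaller of 17. *ZmCESA6* (Zm00001d034770), a subunit of the primary wall cellulose synthase, had 150, 95.5 and 91.5 CPM in *ereb92*_6h, 16.3, 20.5 and 16 CPM in *ereb92*_0h, 28.4, 20.7 and 21 CPM in KN5585_6h, and 14.1, 16.1 and 13.4 CPM in KN5585_0h (1.99, adjusted p = 0.0694). *ZmCESA8* (Zm00001d019317) and *ZmCESA1* (Zm00001d009795) had interactions of 1.73 (adjusted p = 0.161) and 2.53 (adjusted p = 0.271). Callose synthases, in contrast, had 0 of 15 in either direction and a median of -0.03. Across the whole list the *ereb92*_6h libraries stood at 1.21, 0.83 and 0.74, above a highest value of 0.13 in the other 9, and 28 of the 89 genes (31.5%) had their 3 *ereb92*_6h libraries above all others, against 7.42% of all genes.

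Receptor-like kinases, the surface receptors of plant cells, were the largest list near the top. At the unadjusted p 38 of 270 (14.1%, against 5.86% of all genes) were larger and 2 (0.741%, against 0.86%) smaller. The larger ones were 23 without *ereb92*_6h replicate 1 and 63 without KN5585_6h replicate 3. Their mean level was 1.17, 0.78 and 0.52 in *ereb92*_6h, -0.28, -0.27 and -0.22 in *ereb92*_0h, -0.80, -0.07 and -0.01 in KN5585_6h, and -0.46, 0.02 and -0.38 in KN5585_0h. A *FERONIA*-like gene (Zm00001d029047), of a receptor family that senses the wall in *Arabidopsis*, had 112, 76.2 and 50.9 CPM in *ereb92*_6h and 3.46 to 17.2 CPM elsewhere (2.39, adjusted p = 0.154). A *TMK2*-like gene (Zm00001d033777) had 96.2, 42.3 and 30.5 CPM in *ereb92*_6h and 0.864 to 9.03 CPM elsewhere (2.99, adjusted p = 0.164). Calcium sensors and their kinases had 20 of 146 (13.7%) larger and 1 smaller, with a median of 0.40, and 13 larger with a median of 0.23 without *ereb92*_6h replicate 1. UDP-glycosyltransferases, which attach sugars to hormones and other small molecules, had 25 of 131 (19.1%) larger and 0 smaller, and 13 to 16 larger without *ereb92*_6h replicate 1, *ereb92*_0h replicate 1 or 3, or KN5585_0h replicate 2. A *UGT73B3*-like gene (Zm00001d044106) had 20.4, 27.3 and 43.8 CPM in *ereb92*_6h and 1.04 to 7.23 CPM elsewhere (3.98, adjusted p = 0.095).

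Seed reserves gave a different pattern. The storage protein list had a median of 0.61, with 6 of 41 members (14.6%) larger and 1 smaller, but its median change was -0.22 in *ereb92* and -0.41 in KN5585, and the median interaction was 0.06 without *ereb92*_6h replicate 2, 0.14 without KN5585_0h replicate 2 and 0.94 without KN5585_6h replicate 3. Without either of the first pair of libraries, 2 members were larger. For the 16 zeins, the storage proteins of maize endosperm, the median change was -0.61 in *ereb92* and -1.99 in KN5585. Summed zein counts were 40.4, 80.7 and 10.1 CPM in *ereb92*_6h, 48.5, 103 and 75.7 CPM in *ereb92*_0h, 87, 22 and 99.8 CPM in KN5585_6h, and 176, 544 and 127 CPM in KN5585_0h, so the 3 KN5585_0h libraries were the highest of all 12 and lay above *ereb92*_0h without overlap. The list of starch and sugar mobilization enzymes had 5 of 57 (8.77%, against 5.86% of all genes) larger, a median of 0.05 and the called hexokinase 7, and the count was 10 without KN5585_0h replicate 1 and 8 without *ereb92*_6h replicate 2 or 3. The alpha-amylase gene *ZmAMYa2* (Zm00001d031794), of the enzymes that break down starch, had 19.5, 51.2 and 15.8 CPM in *ereb92*_6h, 8.21, 14 and 8.36 CPM in *ereb92*_0h, 24.3, 3.16 and 3.97 CPM in KN5585_6h, and 13.4, 15.1 and 14.8 CPM in KN5585_0h (1.96, adjusted p = 0.693), with *ereb92*_6h and KN5585_6h overlapping.

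The machinery of protein synthesis, protein breakdown and respiration had small negative medians that many members shared. Of 358 cytosolic ribosomal protein genes, 24.0% had a positive interaction against 54.4% of all genes. At the unadjusted p 8 of them (2.23%) were larger and 0 smaller, against 5.86% and 0.86% of all genes. The larger ones in the list were 5 without *ereb92*_0h replicate 3 or KN5585_0h replicate 2. The list's mean level was -0.30, -0.32 and 0.14 in *ereb92*_6h, 0.18, 0.13 and 0.12 in *ereb92*_0h, -0.36, 0 and 0.13 in KN5585_6h, and 0.13, -0.07 and 0.22 in KN5585_0h, so that *ereb92*_6h and KN5585_6h overlapped. The 40S and 60S subunits had like medians, -0.26 over 119 genes and -0.27 over 143. For the proteasome and ubiquitin conjugation, 25.5% of 149 genes were positive, with 2 larger and 1 smaller, and the list's mean level was -0.18, -0.04 and -0.13 in *ereb92*_6h, 0.17, 0.09 and 0.10 in *ereb92*_0h, -0.05, -0.03 and 0 in KN5585_6h, and 0.06, -0.04 and 0.04 in KN5585_0h. Here the *ereb92*_0h libraries were the highest 3. The nuclear respiratory chain had 28.3% of 127 genes positive, 1 larger and 1 smaller. The medians of these 3 lists stayed negative whichever library was left out: -0.47 (without *ereb92*_6h replicate 3) to -0.13 (without KN5585_6h replicate 3) for ribosomal proteins, which were -0.16 without *ereb92*_6h replicate 2, -0.33 to -0.19 for the proteasome and -0.34 to -0.17 for the respiratory chain.

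Genes encoded by the mitochondrial genome had the most members of the 44 lists in the other direction. Of 175 members, 42 could be tested, and 13 of these (31.0%, against 0.86% of all genes) had a smaller increase in *ereb92* at the unadjusted p, 0 a larger one, and 5 a positive interaction. None passed the adjusted threshold in edgeR, and DESeq2 called 2. The median change over 6 h was 1.08 in *ereb92* and 2.46 in KN5585. These genes encode subunits of the respiratory complexes, the ATP synthase, mitochondrial ribosomal proteins and factors of cytochrome *c* maturation. Plant mitochondrial mRNAs lack the poly(A) tail of nuclear ones, and poly(A) selection therefore catches few of them, so the values show what was captured in these libraries.

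The groups differed at both times. Mitochondrial genome genes took 0.0273%, 0.0965% and 0.0886% of the counts in *ereb92*_6h, 0.0348%, 0.0536% and 0.0471% in *ereb92*_0h, 0.0986%, 0.145% and 0.078% in KN5585_6h, and 0.0141%, 0.0305% and 0.0203% in KN5585_0h. *ereb92*_0h lay above KN5585_0h in every library pair, *ereb92*_6h overlapped KN5585_6h, and *ereb92*_6h replicate 1 was lower than any *ereb92*_0h library. The list's mean level was -0.89, 1 and 0.99 in *ereb92*_6h, -0.69, 0.02 and -0.16 in *ereb92*_0h, 0.59, 1.62 and 0.85 in KN5585_6h, and -1.42, -0.95 and -0.96 in KN5585_0h. For 9 of the 42 genes (21.4%), the 3 KN5585_0h libraries lay below the other 9, against 0.739% of all genes. The median of -1.61 was -1.86 to -1.17 with each library left out, and the 13 genes were 8 without *ereb92*_0h replicate 2.

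The roles within the organelle had like medians. It was -1.90 for the 4 *nad* genes of complex I, -1.88 for 4 *cox* and *cob* genes, -1.79 for 5 *atp* genes, -1.79 for 8 ribosomal proteins, -1.69 for 4 *ccm* genes and -1.14 for 16 open reading frames of no named function. The subunit 1 gene of cytochrome *c* oxidase, *cox1* (ZeamMp136), had 68.6, 311 and 190 CPM in *ereb92*_6h, 95.6, 179 and 112 CPM in *ereb92*_0h, 260, 361 and 293 CPM in KN5585_6h, and 46.4, 61.9 and 40.7 CPM in KN5585_0h (-2.06, SE 0.614, adjusted p = 0.338). KN5585_0h was the lowest group, with no overlap with KN5585_6h, while *ereb92*_6h and *ereb92*_0h overlapped. The ribosomal protein gene *rps1* (ZeamMp097) had 5.43, 17.1 and 18.5 CPM in *ereb92*_6h, 3.71, 5.12 and 3.11 CPM in *ereb92*_0h, 16.4, 31.3 and 18.8 CPM in KN5585_6h, and 1.62, 0.988 and 0.628 CPM in KN5585_0h (-2.59, SE 0.703, adjusted p = 0.271). The ATP synthase gene *atp1-a1* (ZeamMp163) had 0.696, 4.01 and 2.09 CPM in *ereb92*_6h, 0.73, 1.6 and 0.843 CPM in *ereb92*_0h, 6.89, 9.24 and 4.14 CPM in KN5585_6h, and 0.38, 0.132 and 0.0785 CPM in KN5585_0h (-3.99, adjusted p = 0.272).

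**Figure D4:**
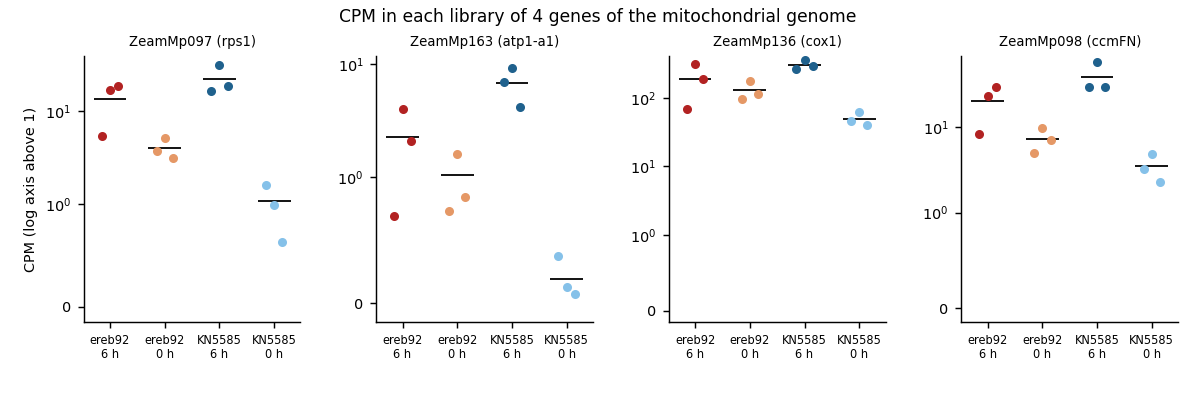
CPM (log axis) of *rps1*, *atp1-a1*, *cox1* and *ccmFN* in each library, 3 libraries per group, with a line at the group mean. KN5585_0h is the lowest group in each gene, and *ereb92*_6h replicate 1 is the lowest imbibed library, as with 68.6 CPM for *cox1*.

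Nuclear genes with the lowest p in that direction did not pass the adjusted threshold either. An aspartic proteinase A1 gene (Zm00001d038045), of the proteases that work in vacuoles, had 9.88, 17.4 and 5.5 CPM in *ereb92*_6h, 14.2, 19.6 and 20.7 CPM in *ereb92*_0h, 38.1, 26 and 22 CPM in KN5585_6h, and 8.65, 12 and 9.5 CPM in KN5585_0h (-2.24, adjusted p = 0.202). A lipid-transfer protein gene (Zm00001d038532) had 55.9, 71.3 and 77.1 CPM in *ereb92*_6h, 67.1, 108 and 90.5 CPM in *ereb92*_0h, 482, 559 and 139 CPM in KN5585_6h, and 128, 74.7 and 88.1 CPM in KN5585_0h (-2.40, adjusted p = 0.203). In both, KN5585_6h lay above all other libraries. A metacaspase-3 gene (Zm00001d029388), of a family of cysteine proteases linked to cell death, had 2 counts in *ereb92*_6h against 61 in *ereb92*_0h, a ratio of 0.033 with an exact 95% counting interval of 0.00391 to 0.124, and in KN5585 it had 2.34, 1.1 and 4.67 CPM at 6 h against 3.14, 1.12 and 0.55 CPM at 0 h. The interval is for summed counts and leaves out the spread between libraries.

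The same lists can be read by genotype. For the highest lists of regulators and receptors, the median change was positive in *ereb92* and nearer 0 in KN5585. It was 1.12 in *ereb92* and 0.12 in KN5585 for gibberellin and GRAS genes, and 0.72 and 0.25 for WRKY factors. For NAC factors it was 0.73 and 0.03, and for receptor-like kinases 0.84 and 0.15. The bZIP factors, lower in the ranking, had 0.09 in *ereb92* and -0.15 in KN5585. The ribosomal, proteasome and respiratory lists had changes of -0.38, -0.23 and -0.33 in *ereb92*, against -0.10, -0.04 and -0.05 in KN5585. The mitochondrial genome was the one list with a median change above 1 in both genotypes.

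**Figure D5:**
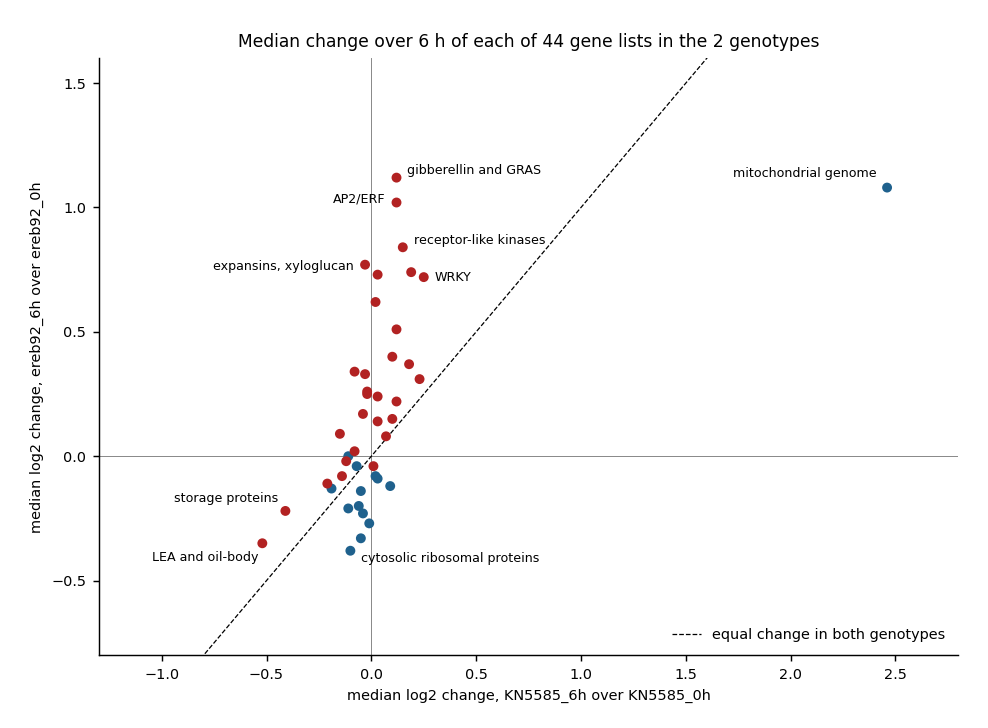
Median log2 change over 6 h of each gene list in *ereb92* (y axis) and in KN5585 (x axis), with equal changes on the dashed line. AP2/ERF factors lie above the line at 1.02 in *ereb92* and 0.12 in KN5585, and the mitochondrial genome list below it at 1.08 and 2.46.

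The lists of genes that the study drew up are given for completeness. They were picked from these libraries, so their direction is no independent evidence. Of its cold-related genes, 21 of 30 tested (70.0%) had a larger increase in *ereb92* at the unadjusted p with a median of 2.08, and the same held for 17 of 33 hormone-related genes (51.5%, median 1.66) and 8 of 22 AP2/EREB genes (36.4%, median 1.80). The AP2/EREB count was 5 without *ereb92*_6h replicate 1 and 15, with a median of 2.85, without KN5585_6h replicate 3. Its 15 PP2C genes had 0 in either direction and a median of 0.20, which was -0.13 without *ereb92*_6h replicate 3, -0.03 without KN5585_0h replicate 1 and -0.38 with limma-voom.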

How the data were processed

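Gene-level read counts and FPKM values for 12 libraries were used. The authors aligned the reads with Hisat2 (v2.0.5) to B73 RefGen_v4 and counted them with featureCounts (v1.5.0-p3). Strand setting and treatment of multi-mapping reads are not given in the sources used here, so members of gene families with near-identical copies, and overlapping genes, are uncertain. The deposited counts were tested as they are. The deposited FPKM values, scaled by the authors to gene length and library depth, served only to write group means per gene and no test. The deposited log2 fold change, p-value and adjusted p-value columns hold the authors' own comparisons and were not used.

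The fit was edgeR's (4.0.16, R 4.3.3) quasi-likelihood test over all 4 groups, with TMM scaling and filterByExpr, for the contrast (*ereb92*_6h minus *ereb92*_0h) minus (KN5585_6h minus KN5585_0h). A call needed a Benjamini-Hochberg adjusted p under 0.05 over all 25567 genes and a log2 interaction of at least 1 in size. Log2 CPM values had a prior count of 2. Total counts per library ranged from 12771663 to 15383586. The common dispersion was 0.287, and replicates correlated at r = 0.827 to 0.948 over genes. The labels name biological replicates without saying which seeds or ears they came from, so p-values measure the spread between these libraries.

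Alternatives were DESeq2 (1.42.0), limma-voom with sample quality weights (3.58.1), other scalings and filters, leaving out the 20 most abundant genes, a replicate block, and each library left out. The members and the word-based gene lists were chosen with earlier results of these data known, and the lists carry no test of their own. Setting groups at 0 to a floor of 3 counts a library, the bins by abundance and a block within each genotype were added after the data were seen. Single genes were named by rule: the called genes, the 12 of lowest p in each direction that have an annotation and at least 1 CPM in some group, up to 4 per list of the 12 highest and 12 lowest lists and the hormone lists, and genes the study names. Not all of them are printed. The scripts were tested on simulated data.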

Additional observations from a re-analysis of the deposited data

Results flagged for a closer look

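Each of the 8 genes called by edgeR's quasi-likelihood test for the interaction stands here because the change over 6 h differed between the genotypes by that test. The log2 interaction was 5.53 for *RAV1* (Zm00001d043782) and 9.82 for Actin-7 (Zm00001d032480), both with an adjusted p of 0.0333. It was 3.07 for Zm00001d021221, 4.14 for Zm00001d032810, 3.80 for hexokinase 7 (Zm00001d037689) and 4.62 for Zm00001d029667, each with an adjusted p of 0.0458. It was 6.94 for Zm00001d028838 and 5.24 for Zm00001d033714, both with an adjusted p of 0.0485. With the replicate number as a block none of the 8 passed. In all 8 genes the 3 *ereb92*_6h libraries lay above the other 9, a property that 7.42% of all genes had. Since the interaction chose these genes from the same libraries, this is a description and no test.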

How the results depend on the processing

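The number of genes with a larger increase in *ereb92*, 8, was 353 with DESeq2, 477 with limma-voom, 105 with no filter except 1 count, 42 with at least 10 counts in every library and 2 with library size alone. It was 0 to 281 with each library left out. The number with a smaller increase, 0, was 13 with DESeq2, 36 with limma-voom, 1 with no filter, and 0 to 3 with each library left out (3 without KN5585_0h replicate 1 or KN5585_6h replicate 3, 1 without *ereb92*_6h replicate 2). At the unadjusted p, the 1497 larger were 2840 with limma-voom, 2335 with no filter and 1070 to 2667 with each library left out. The 220 smaller were 674 with limma-voom, 372 with no filter, 352 with upper-quartile scaling, 378 without the log2 limit, and 160 to 459 with each library left out (452 without KN5585_0h replicate 1 and 459 without KN5585_6h replicate 3). The cause of these shifts was not tested. Larger genes were 87.2% of both directions with TMM, 82.8% with library size alone, 79.3% with upper-quartile scaling and 80.8% with limma-voom.

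Fitting replicate number as a block left 0 called genes in either direction, and 1359 larger and 185 smaller at the unadjusted p. The deviations of same-numbered *ereb92*_6h and *ereb92*_0h libraries correlated at 0.18 to 0.364 in the 3 pairs, against -0.263 to 0.0265 for unlike numbers, while those of KN5585_6h and KN5585_0h did so at -0.221 to 0.188 and no same-numbered pair across the genotypes was over 0.1. Same-numbered *ereb92* libraries were thus the more alike by these values, and the KN5585 ones were not, with no label to say that numbers pair libraries. Deviations from a mean of 3 replicates sum to 0, so the values for unlike numbers are not independent of those for same numbers. Of the 12 libraries, 7 correlated best with 1 of their own number. Whether the libraries were paired cannot be told from these values. A block within each genotype, added after the data were seen, left 0 called genes in either direction, and 1463 larger and 214 smaller at the unadjusted p, with a median of 0.90 for wall synthesis genes and 2.06 for the study's hormone-related genes.

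Of all list medians under all alternatives, 1105 moved by no more than the spread between replicates of the list's mean level and 71 by more. That spread is of a level and not of an interaction. Leaving out 1 of 3 libraries as a rule moves a group mean by only part of it. The 2 counts therefore do not show that the medians are stable. The mitochondrial genome list kept its sign under every scaling (-1.69 to -1.60), and its 13 genes at the unadjusted p were 19 with limma-voom and 18 with the block. With groups at 0 set to the floor, the medians of the gibberellin and GRAS list, the WRKY list and the wall synthesis list were 1.04, 0.90 and 0.56. Precision is set by 3 libraries per group with a common dispersion of 0.287, and a gene that missed the threshold is not shown to change alike in both genotypes.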

Other observations

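Of redox and secondary metabolism, 3 further lists also lay above the median of all genes, 0.08. Class III peroxidases and NADPH oxidases, which make and use hydrogen peroxide at the wall, had 6 of 50 members (12%, against 5.86% of all genes) with a larger increase in *ereb92* at the unadjusted p, 1 with a smaller one and a median interaction of 0.47. Peroxidase 24 (Zm00001d040399) had 428, 266 and 289 CPM in *ereb92*_6h, 7.84, 14.7 and 5.64 CPM in *ereb92*_0h, 3.25, 13.2 and 21.9 CPM in KN5585_6h, and 7.79, 6.78 and 1.34 CPM in KN5585_0h (3.86, adjusted p = 0.202). Only imbibed *ereb92* was high. Glutathione S-transferases had 6 of 51 (11.8%) and a median of 0.36, and the phenylpropanoid pathway, which makes lignin precursors, 10 of 79 (12.7%) and 0.31. Without KN5585_6h replicate 2 the medians of these 3 lists were 1.15, 0.75 and 0.81. That of the glutathione S-transferases was 0.16 without KN5585_6h replicate 1. With limma-voom it was -0.04, below the 0.08 of all genes in that fit. Antioxidant and thiol enzymes, in contrast, had 6 of 160 (3.75%) and 0.03. Without KN5585_6h replicate 3 the counts were 10 for peroxidases, 11 for glutathione S-transferases and 11 for antioxidant enzymes.

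Hormone genes with high levels included an auxin response factor 6 gene (Zm00001d003601), with 119, 87.5 and 68.6 CPM in *ereb92*_6h, 15.2, 14.5 and 10.6 CPM in *ereb92*_0h, 23.4, 16 and 24.6 CPM in KN5585_6h, and 18.8, 17.5 and 10.4 CPM in KN5585_0h (2.32, adjusted p = 0.0813). A cytokinin-O-glucosyltransferase 2 gene (Zm00001d052209), of enzymes that store cytokinins as glucosides, had 333, 245 and 200 CPM in *ereb92*_6h, 46.5, 39.5 and 45.6 CPM in *ereb92*_0h, 30.0, 45.3 and 109 CPM in KN5585_6h, and 62.4, 87.8 and 51.1 CPM in KN5585_0h (2.69, adjusted p = 0.134). Neither passed the adjusted threshold.

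Lists of growth, cytoskeleton and heat shock genes were close to all genes or below, while the LEA and oil-body list lay above their median. Cell cycle, DNA replication and histone genes had 4 of 188 (2.13%) and a median of 0.06, heat shock proteins 8 of 155 (5.16%) and -0.03, splicing factors 3 of 125 (2.4%) and -0.05, and cytoskeleton genes 11 of 254 (4.33%) and -0.11, with the called Actin-7 among the last. LEA proteins and oil-body proteins, which protect the dry seed and its lipid, had 4 of 54 (7.41%) and 0.31, and the median was -0.15 without *ereb92*_6h replicate 3 and 0.04 without KN5585_6h replicate 1. Without KN5585_6h replicate 3 the counts were 14 for the cell cycle, 14 for heat shock proteins, 8 for splicing factors and 19 for the cytoskeleton, and without *ereb92*_6h replicate 1 that of the cell cycle was 0. By length, the tenth of genes with the longest models (median 6714 bases) had a median interaction of -0.14, and the tenth with the shortest (465 bases) 0.29; the part of length in the ranks was not tested.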
